A study of Ovis aries with 42 samples.

Results

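The cytosolic ribosomal protein genes were examined in RNA sequencing of liver and gallbladder from sheep whose CFTR gene was disrupted (CFTR-/-, labelled CF) and from wild-type (WT) sheep. Members were chosen by name, as rows whose symbol is RPL or RPS followed by a number, with the usual suffixes, together with RPLP0, RPLP1, RPLP2 and RPSA. There were 82 members among 22981 rows in the liver table (50 of the large and 32 of the small subunit). There were 79 members among 29285 rows in the gallbladder table (48 of the large and 31 of the small subunit). RPL17, RPL37A and RPS28 had a row under these symbols in the liver table only.

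The liver data held 24 libraries, with 2 of CF and 2 of WT per stage. The stages were gestation days 50, 65, 80, 100 and 120, written d50 to d120, and the newborn, which the labels call birth in CF liver and term in WT liver. The gallbladder data held 12 libraries, 2 each of CF at d80, d100 and d120 and of WT at d100, d120 and birth. In gallbladder both genotypes were therefore present only at d100 and d120. RNA came from pieces of frozen whole tissue, so fewer cells of a type and less RNA per cell cannot be told apart. The labels give each animal a number but no breed or litter, and they name a sex for the WT term livers alone.

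A eukaryotic ribosome is built from ribosomal RNA and one copy of most of these proteins, the RPS proteins in the small subunit that reads the messenger RNA and the RPL proteins in the large subunit that forms the peptide bonds. RPLP0, RPLP1 and RPLP2 form the stalk that recruits translation factors. Ribosomal protein messenger RNAs begin with a run of pyrimidines through which mTOR signalling sets their translation, and the genes are usually transcribed together. Growing fetal liver, which is also a site of blood formation before birth, makes many ribosomes.

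Library totals ran from 29705597 to 56808639 estimated counts in liver and from 32374693 to 54443213 in gallbladder. CFTR, the targeted chloride and bicarbonate channel, had 0.687 to 42.2 CPM (counts scaled to a common library size) in CF livers and 0.846 to 2.81 CPM in WT livers. In gallbladder it had 18.0 to 117 CPM in CF and 7.13 to 33.1 CPM in WT. Counts over the whole gene do not show the disrupted part, so they do not check the genotype labels. The number of one animal appears on a WT d65 liver (replicate 2) and on the CF d100 liver and gallbladder. Hepatocyte markers took 8.59% to 32% of counts in CF livers and 21.5% to 29.0% in WT livers. In gallbladder they took 0.0214% to 8.52% of counts in CF and 2.41% to 18.2% in WT. Cholangiocyte markers took 0.231% to 0.674% of counts in CF gallbladders and 0.0915% to 0.700% in WT gallbladders, against 0.0213% to 0.119% in CF livers and 0.0160% to 0.0332% in WT livers. The lowest gallbladder values, 0.0915% and 0.0928%, were those of the WT d100 libraries, below the 0.117% and 0.119% of the CF newborn livers. Where nothing states that the 2 libraries of a group come from separate litters, p-values measure only the spread between these libraries.

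Levels below are CPM after scaling by TMM factors, and each tissue was fitted by itself. Transcript lengths were not used, so levels are compared between libraries and not between genes. A core member averaged at least 10 CPM and did not switch between libraries, a switch row reached at least 10 CPM in one library and at least 32 times its lowest library (floored at 0.1 CPM), and the remaining rows were low. In liver 78 members were core, 2 were switch rows (RPS3A and RPL10L) and 2 were low (RPL37 and RPL3L), and all 82 passed the filter on low counts. In gallbladder 75 were core, 1 was a switch row (RPL10) and 3 were low (RPL3L, RPL10L and RPL27A), and 77 of the 79 passed the filter.

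The ribosomal protein rows together took between 3.24% and 8.79% of all counts in a liver library and between 3.66% and 26.4% in a gallbladder library. In CF liver the d50 share was 6.69% and 4.53%, the d65 share 8.79% and 8.36%, the d80 share 7.98% and 7.19%, the d100 share 6.73% and 6.62%, the d120 share 3.79% and 4.0%, and the newborn share 5.52% and 7.18%. In WT liver the d50 share was 4.06% and 6.59%, the d65 share 5.11% and 7.89%, the d80 share 6.24% and 6.07%, the d100 share 6.70% and 6.09%, the d120 share 5.84% and 5.40%, and the newborn share 3.24% and 4.01%. The CF share was highest at d65 and lowest at d120, where both CF libraries lay below every WT fetal library. The WT share kept a narrower band from d80 to d120 and was lowest in newborns.

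**Figure D1:**
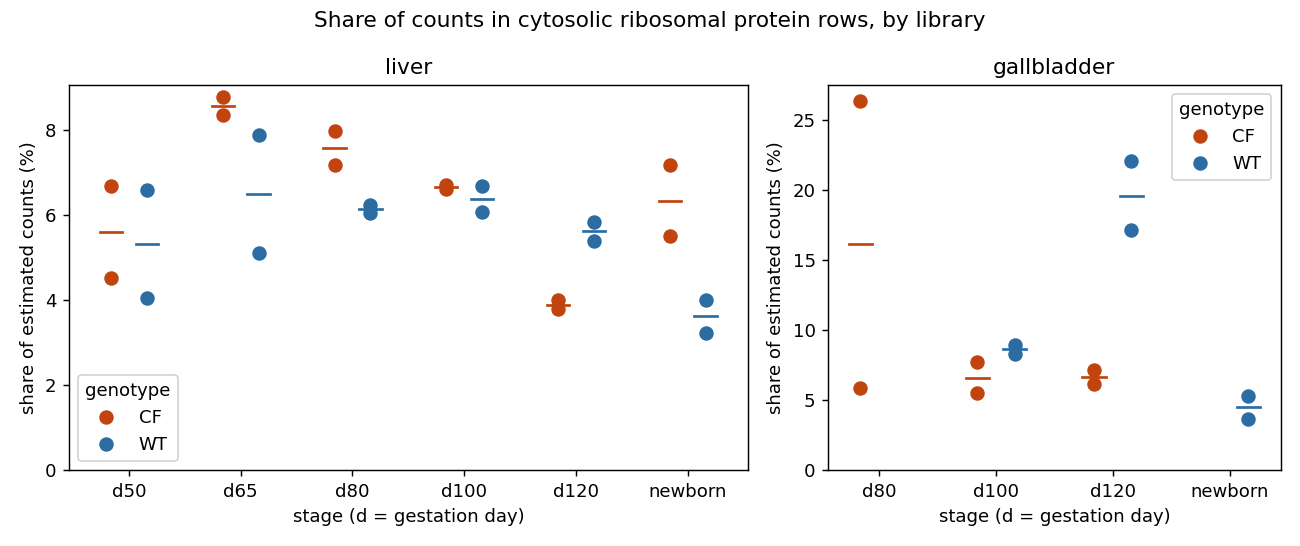
Share of all estimated counts (percent) in ribosomal protein rows, one point per library and a short line at the mean of the 2 libraries of a group, with CF left of WT at each stage. In liver the CF points lie between 3.79% (d120) and 8.79% (d65), and in gallbladder one CF d80 library (26.4%) and both WT d120 libraries (22.1% and 17.2%) stand above the rest.

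Within each tissue the core members moved together. The correlation of a core member's log2 level with the median of the other core members over the 24 liver libraries had a median of 0.975, and it was above 0.9 for 73 of 78. In gallbladder, over 12 libraries, the median was 0.993 and 74 of 75 were above 0.9. The medians of large and small subunit members correlated at 0.998 in liver and 0.999 in gallbladder. These values describe rows that share a library and its scaling. The loosest liver members were RPL26 (0.578), whose row held only 2.94 to 31.1 CPM, RPS15A (0.850), RPS2 (0.873), RPS27L (0.879) and RPL29 (0.888). RPS2 is the small subunit protein at the messenger RNA entry, and RPS27L is a paralogue of RPS27.

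Other quantities moved with the core members. Subunits of the mitochondrial respiratory chain took 0.620% to 1.12% of counts in CF livers and 0.702% to 1.00% in WT livers, and the log2 of this share correlated with the core median at 0.902 in liver and 0.783 in gallbladder. The same correlation for mitochondrial ribosomal protein rows was 0.617 in liver and 0.870 in gallbladder. Both shares are of raw counts, while the core median is TMM scaled. The raw share of the members correlated with that of respiratory chain subunits at 0.764 in liver and 0.838 in gallbladder. The TMM factor correlated with the core median at -0.766 in liver and -0.874 in gallbladder. Levels are divided by this factor, so part of a negative correlation is built in. The part of library composition in the courses below was not tested.

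Over fetal life 30 of the 78 core members fell in CF liver, and 0 had a called change in WT liver. The change along a line in gestation day from d50 to d120 had a median of -0.98 on the log2 scale over the 78 core members in CF, with all 78 below 0, beside a median of 0.06 over all 16508 genes tested. In WT the core median was 0.10, beside -0.06 over all genes. In edgeR's quasi-likelihood test, with p-values adjusted by Benjamini-Hochberg over all genes, 30 members fell and 0 rose in CF, where 7.96% of all genes fell and 8.58% rose. In WT 0 members changed in either direction, where 3.19% of all genes rose and 1.61% fell, and 0 of the 82 had an unadjusted p below 0.05. DESeq2 also called 0 members in WT.

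The CF course was not a steady decline. Relative to its mean over the 24 libraries, the core median in CF began at -0.06 (d50), reached 0.82 (d65), then stood at 0.61 (d80) and 0.39 (d100), and was -0.89 (d120) and -0.69 (birth) at the last stages, all on the log2 scale. In WT it began at -0.25 (d50), kept to 0.20 (d65), 0.22 (d80), 0.18 (d100) and 0.06 (d120), and was -0.64 at term. In CF the highest fetal group mean fell at d65 for 76 core members and at d80 for the other 2 (RPLP1 and RPS15A), and the lowest fell at d120 for all 78. In WT the highest fetal mean was spread over d65 (25 members), d80 (37), d100 (11) and d120 (5), and the lowest was at d50 for 68 members. The 2 libraries of a group differed in their core median by up to 0.78 in CF (d50) and by up to 1.19 in WT (d50). In WT the libraries of d50 (-0.84 and 0.35) and d65 (-0.33 and 0.73) overlapped. In CF both d65 libraries (0.96 and 0.71) lay above both d50 libraries (0.35 and -0.43). This early rise in CF rests on 2 libraries a group and was not tested by itself.

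**Figure D2:**
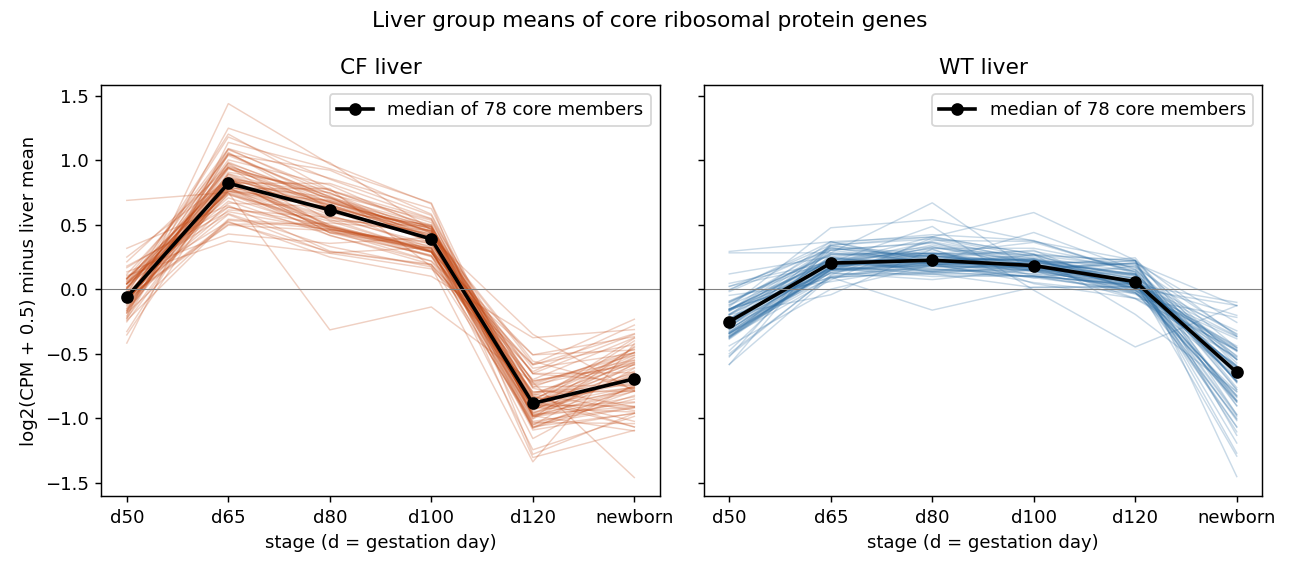
Group means of the 78 core members in CF liver (left) and WT liver (right) from d50 to newborn, as log2(CPM + 0.5) minus each gene's mean over the 24 liver libraries. The black line is the median over the 78 members, which in CF is -0.89 at d120, against 0.39 at d100, and in WT stays between 0.06 and 0.22 from d65 to d120.

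The CF slope rested on the d120 livers. Both CF d120 libraries lay below all 8 CF libraries of d50 to d100 for 65 of 78 core members, where 13.8% of all genes did so. Both WT d120 libraries lay below all 8 WT libraries of d50 to d100 for 1 core member (RPS15A), where 4.77% of all genes did so. With the line drawn over d50 to d100 the number of called members in CF was 0 and the members' median change was 0.25. The count of 30 also depended on single libraries. It was 0 without CF d120 replicate 1 or without CF d50 replicate 1, and 4 without CF d120 replicate 2. It was 10 to 12 without CF d100 replicate 2, CF d100 replicate 1 or CF d65 replicate 1. It was 48 or more without CF d50 replicate 2 (49), either WT d65 library (48) or either WT d50 library (55). With the 4 CF livers from d65 and d80 that share a donor-number stem, and likewise 8 WT livers, summed to 1 unit per stem, 2 members were called.

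Stalk and 5S particle members showed the CF course at library level. RPLP0, the scaffold of the stalk, had 1818 and 1216 CPM at d50 in CF livers, 2242 and 1769 CPM at d65, 1947 and 1670 CPM at d80, 1505 and 1712 CPM at d100 and 684 and 817 CPM at d120. In WT livers RPLP0 had 996 and 1712 CPM at d50, 1255 and 2287 CPM at d65, 1588 and 1469 CPM at d80, 1653 and 1315 CPM at d100 and 1385 and 1180 CPM at d120. Both CF d120 livers were therefore below all other fetal livers of either genotype. RPLP0 changed by -1.0 ± 0.29 (log2, SE) over the CF slope (adjusted p = 0.0266) and by -0.18 ± 0.29 in WT (adjusted p = 0.806). RPL5 and RPL11, which bind 5S ribosomal RNA and hold back MDM2 when ribosome assembly fails, fell by 1.05 and 1.14 in CF. RPL5 had 494 and 529 CPM in CF livers at d120 against 1036 and 999 CPM in WT livers. RPLP1 (-0.65, adjusted p = 0.180) and RPLP2 (-1.02, adjusted p = 0.0613), the acidic stalk proteins, had negative changes that were not called.

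Small subunit members followed the same course. RPS6, the substrate of S6 kinase, had 1250 and 691 CPM at d50 in CF livers, 2112 and 1968 CPM at d65, 1674 and 1360 CPM at d80, 1325 and 1243 CPM at d100 and 404 and 475 CPM at d120. In WT livers RPS6 had 525 and 1447 CPM at d50, 813 and 1960 CPM at d65, 1270 and 1319 CPM at d80, 1379 and 1011 CPM at d100 and 937 and 778 CPM at d120. The CF change was -1.29 ± 0.38 (log2, SE; adjusted p = 0.0291), with both CF d120 libraries below all others. RPSA, the small subunit protein also known as a laminin receptor, fell by 1.02 on the log2 scale (adjusted p = 0.0384). RPS19 (-0.92, adjusted p = 0.113) and RPS14 (-0.77, adjusted p = 0.153), whose loss impairs red cell formation in people, were not called.

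RPL26, whose liver row held only 2.94 to 31.1 CPM, had the largest called decrease in CF. The largest called decreases after RPL26 were those of RPS21 (-1.44 ± 0.45), RPL7 (-1.39 ± 0.32), RPS4X (-1.39 ± 0.31), RPS15A (-1.34 ± 0.35), RPS2 (-1.34 ± 0.31) and RPS12 (-1.30 ± 0.39; log2 ± SE). RPL7 had 461 and 516 CPM at d120 in CF livers against 1047 and 898 CPM in WT livers, and it had 1972 and 1727 CPM at d65 in CF livers against 946 and 1676 CPM in WT livers. The changes closest to 0 among core members were those of RPS27 (-0.43) and RPS27L (-0.45), neither of them called. RPL3, which lies near the peptidyl transferase centre, changed least among the called members (-0.77, adjusted p = 0.0466).

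**Figure D3:**
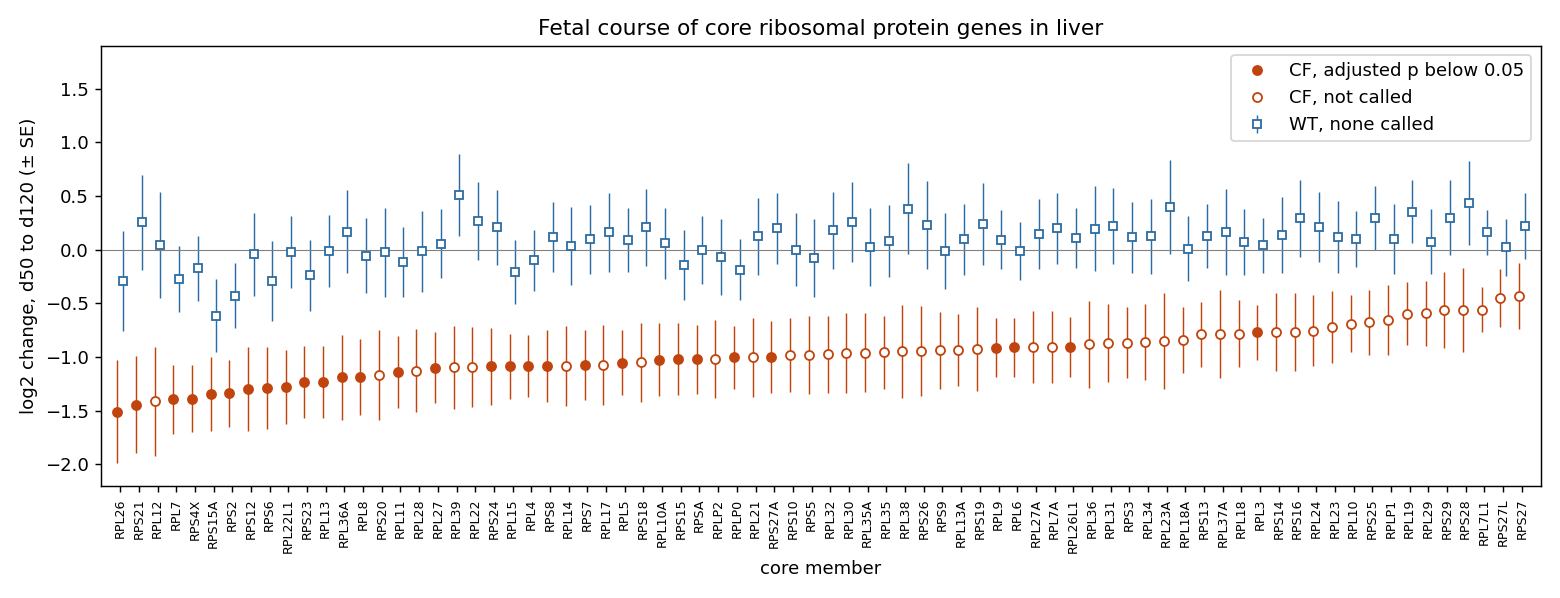
Change on the line from d50 to d120 (log2, with SE) of 76 of the 78 core members in CF liver (circles, filled where adjusted p was below 0.05) and WT liver (squares), ordered by the CF value. The CF values run from -1.51 (RPL26) to -0.43 (RPS27), and no WT value was called.

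The difference between the slopes was not called for any member. The CF slope minus the WT slope had a median of -1.02 over the core members, with all 78 below 0, beside 0.08 over all genes. Of the 82 members 46 had an unadjusted p below 0.05, as had 2174 of all 16508 genes, but edgeR called 0 of them in either direction after adjustment, and the smallest adjusted p among core members was 0.324 (RPL39, -1.61 ± 0.54). DESeq2 also called 0. Over all genes this comparison called 0.00606% higher and 0% lower, so almost nothing could be called in it. The F test of whether CF minus WT differs between the 5 fetal stages called 0 members, with 9 of 82 members and 1684 of 16508 genes at an unadjusted p below 0.05 and 0 by DESeq2's likelihood ratio test, against 0.0424% of all genes called. A fall particular to CF is therefore not shown by these tests.

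Averaged over the 5 fetal stages the core members did not separate by genotype. The median of CF minus WT was 0.06 on the log2 scale, beside -0.05 over all genes, and 0 of 78 core members were called or had an unadjusted p below 0.05. The single called member was RPS3A, which was lower in CF, where 0.854% of all genes were higher and 1.69% lower. DESeq2 likewise called 1 member.

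RPS3A encodes a small subunit protein that contacts initiation factors, and its row in liver was on in some libraries and off in others. In CF livers it had 0.775 and 0.437 CPM at d50, 1.51 and 1.02 CPM at d65, 0.607 and 0.575 CPM at d80, 0.437 and 0.401 CPM at d100, 0.137 and 0.301 CPM at d120 and 0.118 and 0.132 CPM at birth. In WT livers it had 28.4 and 604 CPM at d50, 778 and 0.824 CPM at d65, 1.01 and 0.908 CPM at d80, 934 and 766 CPM at d100, 398 and 0.337 CPM at d120 and 471 and 605 CPM at term. All 12 CF libraries were thus near 0, as were 4 of the 12 WT libraries, and the 2 libraries of the WT d65 and d120 groups lay on opposite sides of this divide. CF minus WT over the fetal stages was -7.76 ± 1.08 (log2, SE; adjusted p = 0.000547). In newborns it was -12.05 ± 2.87 (adjusted p = 0.00356). The low WT d65 liver, replicate 2, is the one whose animal number also stands on a CF liver. The other low WT livers, both of d80 and replicate 2 of d120, carry numbers that stand on no CF library.

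Where RPS3A was near 0 in liver, an unnamed row held 631 CPM or more. Among 7683 other rows that reached at least 20 CPM, LOC101116132 gave the sum with RPS3A that followed the liver core median most closely (r = 0.991, against -0.113 for RPS3A alone), and the next row gave 0.873. The row was picked after the values were seen, and the reference gene table holds no entry for it, so no name or role is given to it. In CF livers the sum of both rows was 631 to 2738 CPM, of which RPS3A made at most 0.0551%. In WT livers the sum was 633 to 2291 CPM, of which RPS3A made 0.0238% to 74.3%. The sums of the genotypes overlapped over nearly their whole range.

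In gallbladder the same search did not single out this row. LOC101116132 ranked 3 of 10448 rows (r = 0.980), behind GNB2L1 (0.986) and a second RPL10 row (0.982), and RPS3A alone already gave 0.936. Set against the same row as in liver, RPS3A made 53.9% and 41.5% of the sum in CF d80 libraries, 42.3% and 43.2% in CF d100 and 42.9% and 42.4% in CF d120. It made 82.4% and 83.6% in WT d100 libraries, 66.2% and 76.0% in WT d120 and 88.1% and 86.5% in WT birth. Every CF gallbladder library was below every WT one, and none was near 0. How reads were assigned between both rows is not recorded in the sources used here, and the part of read assignment was not tested. RPS3A was therefore kept apart from the core in liver, and its gallbladder change below is uncertain as well.

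**Figure D4:**
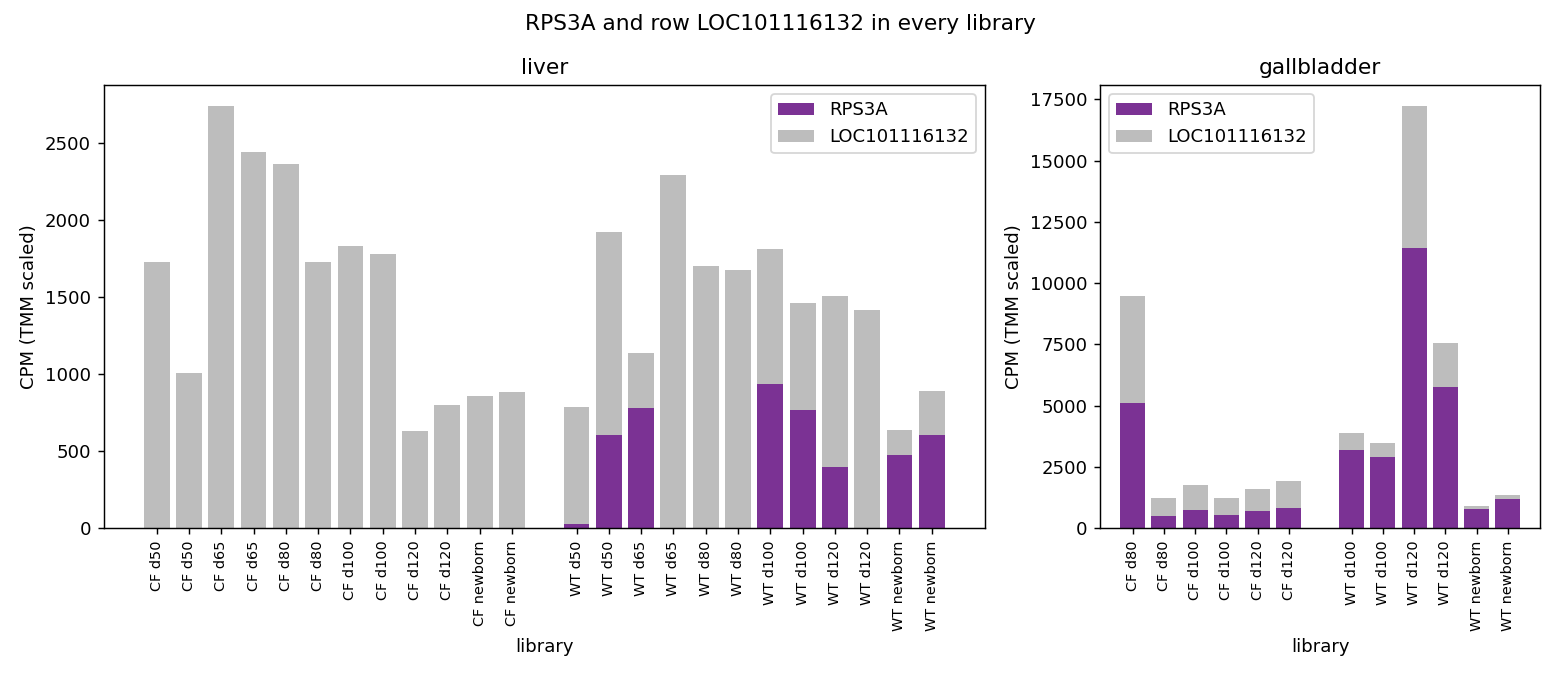
RPS3A (purple) and row LOC101116132 (grey) stacked as CPM in each library of liver and gallbladder, CF libraries left of WT and stages in order within a genotype. RPS3A is invisible in the 12 CF livers (at most 1.51 CPM) and in 4 WT livers, while the summed bars of both genotypes cover a like range.

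The other switch rows were RPL10L in liver and RPL10 in gallbladder. RPL10L, a paralogue of RPL10 known from human and mouse testis, ranged in liver from 0 to 28.0 CPM in CF and from 1.03 to 34.0 CPM in WT. It had 24.6 and 0 CPM in CF newborns, 2.93 CPM in one WT d100 liver and 25.5 CPM in the other, and it was not called in any comparison. In gallbladder all RPL10L values were 0, and RPL10 itself was the switch row. RPL10, which joins the large subunit last, had 101 and 4.86 CPM in CF gallbladder at d80, 7.63 and 5.95 CPM at d100 and 8.32 and 8.93 CPM at d120. In WT gallbladder it had 25.9 and 22.2 CPM at d100, 232 and 93.4 CPM at d120 and 4.92 and 5.35 CPM at birth. A second row whose name adds a suffix to RPL10 held 836 to 4839 CPM in CF and 576 to 2298 CPM in WT gallbladders. In liver the RPL10 row held 588 to 1441 CPM in CF and 618 to 1399 CPM in WT, so most RPL10 counts sit in different rows of the 2 tables. The same holds for RPL27A, whose gallbladder row was at or near 0 (at most 0.209 CPM) while a row that the reference gene table names RPL27A held 676 to 5280 CPM in CF and 531 to 3857 CPM in WT gallbladders. Rows that the same table names RPL37A and RPS28, outside the name rule, were also present in gallbladder. The RPL37A row held 106 to 1252 CPM in CF and 90.4 to 1360 CPM in WT, and the RPS28 row held 205 to 2409 CPM in CF and 178 to 3108 CPM in WT. Two-table gaps of the other direction were those of RPL37 and RPL26. Over both genotypes RPL37 held 0.779 to 6.34 CPM in liver and 288 to 5463 CPM in gallbladder. RPL26 held 2.94 to 31.1 CPM in liver and 336 to 2691 CPM in gallbladder. Whether other liver rows hold their counts was not tested.

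Paralogues were set against their partners by the ratio of their levels within a library. The log2 ratio of RPL22L1 to RPL22 lay between -2.73 and -2.18 in CF livers and between -3.09 and -1.91 in WT livers. RPS27L to RPS27 lay between -2.75 and -1.72 in CF livers and between -2.36 and -1.70 in WT livers, and the CF newborn values (-2.75 and -2.18) were below the WT newborn values (-1.74 and -1.70). RPL7L1, which takes part in ribosome assembly, to RPL7 was -2.60 and -2.55 in CF newborns and -2.61 and -2.46 in CF d120 livers, above the range of CF d50 to d100 livers (-3.60 to -3.31). In WT livers this ratio stayed between -3.67 and -2.93. In gallbladder at d120 the ratio of RPL22L1 to RPL22 was -1.94 and -1.93 in CF against -3.31 and -3.13 in WT. At d100 the values were closer, with -2.04 and -1.97 in CF against -2.28 and -2.16 in WT. These ratios were read after the values were seen and were not tested. RPL3L, a muscle paralogue of RPL3, was at most 0.46 CPM in any liver.

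At the end of gestation 13 core members fell in WT liver and 0 had a called change in CF liver. The library names of both WT term livers carry numbers apart from the run of all other livers. What this reflects is not stated. In every comparison or course with WT term, above and below, it cannot be told apart from stage or genotype. WT term minus WT d120 had a core median of -0.71, with 77 of 78 below 0, beside 0.00 over all genes. In that comparison 13 members fell and 0 rose, where 18.5% of all genes fell and 16.9% rose, so the members' share of 15.9% lies near the background. CF birth minus CF d120 had a core median of 0.19, beside 0.04 over all genes, and edgeR called 0 members in either direction. Of the 82 members 1 had an unadjusted p below 0.05, and DESeq2 called 0, where 6.34% of all genes rose and 8.39% fell. Without CF birth replicate 1 the count was 1 lower.

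The members with the largest called decrease in WT were RPL12 (-1.63 ± 0.57), RPL36A (-1.40 ± 0.44), RPL28 (-1.33 ± 0.43) and RPL23A (-1.32 ± 0.50), all large subunit proteins. RPL12, a protein at the base of the stalk, had 75.8 and 125 CPM in WT term livers against 321 and 302 CPM in WT d120 livers. In CF it had 159 and 118 CPM in newborn livers against 96.1 and 126 CPM in d120 livers. RPS15A was the one core member whose estimate was above 0 in WT (0.34, adjusted p = 0.513), with 503 and 715 CPM in WT term livers against 487 and 473 CPM in WT d120 livers. The WT count of 13 fell to 0 without WT term replicate 1 or WT d120 replicate 1, to 1 without WT d120 replicate 2 and to 3 without WT term replicate 2, and it was 22 without either WT d65 library and 25 without either WT d50 library. Both WT term livers lay below all 10 WT fetal livers for 13 of 78 core members, where 22.8% of all genes did so.

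Red cell and cell cycle markers moved in the same step in both genotypes. Of 21 erythroid markers 20 fell in CF newborn liver and 21 in WT term liver, and of 20 cell cycle genes 20 fell in each. Erythroid markers took 0.0790% to 0.247% of counts in CF newborn livers and 4.73% to 5.0% in CF d120 livers. They took 0.0224% to 0.0241% in WT term livers and 7.32% to 10.2% in WT d120 livers. Their part in the ribosomal protein values was not tested.

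The difference between the last steps, CF minus WT, was a contrast added after the data were seen. It had a core median of 0.92, with 76 of 78 above 0, beside 0.03 over all genes. Of the members 2 were called higher and 0 lower, where 10.8% of all genes were higher and 10.3% lower. RPL4, a large subunit protein that lines the exit tunnel, differed by 1.31 ± 0.45 (adjusted p = 0.0486). RPL26L1, a paralogue of RPL26, differed by 1.28 ± 0.44 (adjusted p = 0.0487). RPL4 had 1024 and 1319 CPM in CF newborn livers and 801 and 857 CPM in CF d120 livers, and 785 and 913 CPM in WT term livers and 1485 and 1485 CPM in WT d120 livers. The CF newborn livers were above the CF d120 livers, and the WT term livers below the WT d120 livers. The count of 2 was 6 without either WT d50 library, 4 without either WT d65 library, 3 without CF d50 replicate 1, 1 without CF birth replicate 1 and 2 without CF birth replicate 2 or CF d50 replicate 2. It was 0 without each of the other 16 libraries. In the same contrast 14 of 21 erythroid markers (median 3.68) and 7 of 13 cholangiocyte markers (median 2.37) were higher, 1 cholangiocyte marker was lower, and 9 of 22 hepatocyte markers (median -1.16) were lower. CF birth replicate 2 stood apart, with 8.59% of its counts in hepatocyte markers against 22.9% in replicate 1. The part of these differences in the ribosomal protein values was not tested.

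Newborn livers of the genotypes did not separate in the core members after TMM scaling. CF birth minus WT term had a core median of -0.06, beside 0.04 over all genes, and RPS3A was the single called member, where 17% of all genes were higher and 16.8% lower. Without CF birth replicate 1 the calls were 3 lower, and without CF birth replicate 2 there was 1 higher beside 1 lower. The direction depended on the scaling. The raw share of counts was 5.52% and 7.18% in CF newborns against 3.24% and 4.01% in WT newborns, and the TMM factors were 1.48 and 2.04 in CF against 0.988 and 0.920 in WT. With library totals in place of TMM, 55 members were called higher and the core median was 0.83, but the median of all genes was then 0.91. Relative to the median gene the core members therefore stood at about the same place under either scaling.

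In gallbladder the core members were lower in CF than in WT at d100 and d120. CF minus WT had a core median of -1.72 on the log2 scale, with all 75 core members below 0, beside 0.16 over all 18717 genes tested. In that comparison 56 of 77 members tested fell and 0 rose, where 20.1% of all genes fell and 23.6% rose. Of the core members 30 of 44 in the large and 25 of 31 in the small subunit fell. Every CF library lay below every WT library for all 75 core members, where 21.5% of all genes did so. The raw share of counts showed the same order, with 7.72% and 5.51% in CF d100, 6.16% and 7.14% in CF d120, 8.97% and 8.28% in WT d100 and 22.1% and 17.2% in WT d120.

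The values by library are given for a stalk protein and for small subunit proteins. RPLP2 had 204 and 128 CPM in CF at d100 and 168 and 229 CPM at d120, against 614 and 499 CPM in WT at d100 and 1568 and 883 CPM at d120. It fell by 2.18 on the log2 scale (SE 0.61, adjusted p = 0.0222), and RPLP1 by 1.69. RPS6 had 1443 and 931 CPM in CF at d100 and 1073 and 1364 CPM at d120, against 2804 and 2522 CPM in WT at d100 and 7619 and 4921 CPM at d120. RPS19 had 829 and 539 CPM in CF at d100 and 711 and 828 CPM at d120, against 2051 and 1680 CPM in WT at d100 and 7268 and 4347 CPM at d120. For each of these genes the WT d120 libraries were the highest of the 8.

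Among the core members with the largest decrease were RPS3A (-2.89 ± 0.69), RPL21 (-2.77 ± 0.76), RPS21 (-2.71 ± 0.71), RPL27 (-2.55 ± 0.68), RPL30 (-2.54 ± 0.67) and RPS26 (-2.53 ± 0.70; log2 ± SE). RPL21 had 826 and 516 CPM in CF at d100 and 652 and 802 CPM at d120, against 2792 and 2386 CPM in WT at d100 and 13572 and 3880 CPM at d120. The smallest differences were those of RPL3 (-0.67 ± 0.45, adjusted p = 0.243), RPL6 (-0.87 ± 0.50, adjusted p = 0.178) and RPL5 (-0.90 ± 0.44, adjusted p = 0.121), large subunit proteins that were not called. RPL3 had 1589 and 1196 CPM in CF at d100 and 1245 and 1544 CPM at d120, against 2066 and 1994 CPM in WT at d100 and 2443 and 2383 CPM at d120. Members of the group therefore differed by several fold in how far CF stood below WT.

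**Figure D5:**
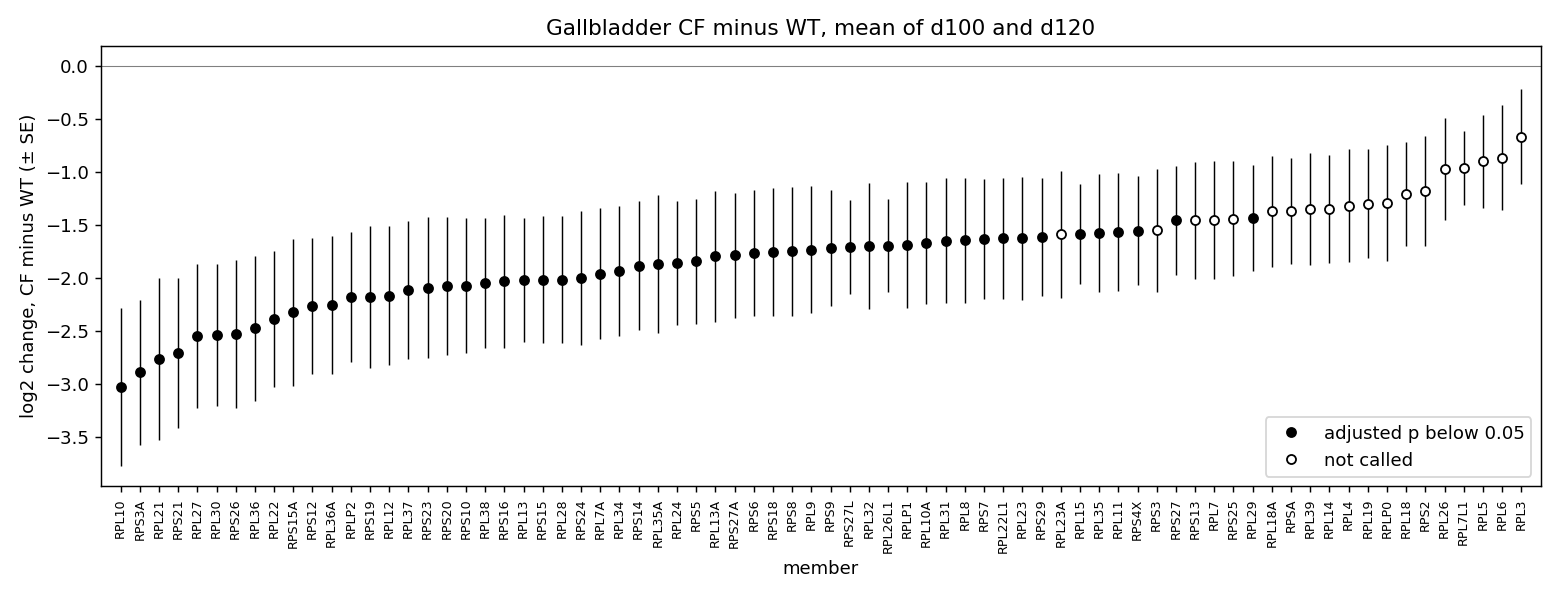
CF minus WT in gallbladder (log2, mean of d100 and d120, with SE) for 73 of the 75 core members and RPL10, ordered by value, filled where adjusted p was below 0.05. All values shown are below 0, from -3.03 (RPL10) and -2.89 (RPS3A) to -0.67 (RPL3).

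The number called rested on few libraries. It was 0 without CF d100 replicate 2 or CF d120 replicate 1, 2 without WT d100 replicate 1, 5 without CF d100 replicate 1, 6 without WT d120 replicate 1, 7 without WT d100 replicate 2 and 10 without CF d120 replicate 2. It was 26 and 27 without a WT birth library and 37 without WT d120 replicate 2. Without either CF d80 library, which enter only the estimate of the spread, it was 76. At d100 alone the median of all members tested was -1.34 and 0 were called, and at d120 alone it was -2.2 and 9 were called. The WT d100 libraries carry animal numbers that differ in a final letter, and taken as 1 unit they left 2 calls. The columns of the 2 CF d100 libraries share 1 library name, and no fit took them as 1 unit.

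Other transcripts differed between the same libraries. Hepatocyte markers took 0.445% and 0.368% of counts in CF d100 and 0.0614% and 8.52% in CF d120, against 17.6% and 18.2% in WT d100 and 10.7% and 7.84% in WT d120. Cholangiocyte markers took 0.496% and 0.473% in CF d100 and 0.561% and 0.231% in CF d120, against 0.0915% and 0.0928% in WT d100 and 0.129% and 0.326% in WT d120. In the same order, the core medians of the CF libraries were -0.50 and -1.01 at d100 and -0.84 and -0.52 at d120. Of 19 erythroid markers 14 fell, of 20 cell cycle genes 12 fell, and of 9 smooth muscle markers 3 fell. Mitochondrial ribosomal proteins (62 of 74 lower, median -1.53) and respiratory chain subunits (49 of 55 lower, median -1.78) were lower as well. The part of these differences in the ribosomal protein values was not tested.

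In WT gallbladder the core members were lower at birth than in the fetus. WT birth minus the mean of d100 and d120 had a core median of -2.32, with all 75 below 0, beside 0.13 over all genes. Of 77 members tested 17 fell and 0 rose, where 11.1% of all genes fell and 16% rose. Both birth libraries lay below all 4 fetal libraries for all 75 core members, where 26% of all genes did so. RPL36, a large subunit protein, had 172 and 222 CPM at birth against 1053 and 842 CPM at d100 and 4366 and 1970 CPM at d120, a change of -3.14 ± 0.94 (log2, SE; adjusted p = 0.0395). RPS21 fell by 2.98 (adjusted p = 0.0475). The count was 0 when compared with d100 alone or with the WT d100 libraries as 1 unit, and 76 without either CF d80 library. It was 10 without WT d120 replicate 2, and 0 or 1 without each of the other 9 libraries. In the same comparison 17 of 19 erythroid markers (median -7.88), 17 of 20 cell cycle genes (median -2.2) and 22 of 74 mitochondrial ribosomal proteins (median -0.99) were lower, and 1 of the 74 was higher. Their part in the ribosomal protein values was not tested.

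In CF gallbladder the d80 libraries disagreed. The share of counts was 26.4% in replicate 1 and 5.88% in replicate 2, and their core medians stood 3.03 apart on the log2 scale, against at most 0.51 in any other gallbladder group. RPLP0 had 8885 and 1536 CPM at d80, 2142 and 1585 CPM at d100 and 1645 and 1997 CPM at d120 in CF. Only replicate 1 was high, and replicate 2 lay among the later libraries. CF later minus d80 had a core median of -1.92, beside 0.05 over all genes. By edgeR 0 members were called, where 0% of all genes were higher and 0.00534% lower. Of the 77 members 73 had an unadjusted p below 0.05, as had 3137 of all 18717 genes, and DESeq2 called 23 lower. Without CF d80 replicate 2 the count was 76, and without replicate 1 it was 0. Replicate 1 and WT d120 replicate 1, the libraries with the highest share, detected 16817 and 15390 rows above 0, against 18249 to 20598 in the other 10.

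Genes that make or run ribosomes were compared from lists chosen beside the members. Over the CF liver slope, where 7.96% of all genes fell, 18 of 42 ribosome assembly factors fell and 0 rose (median -0.70), led by NOLC1 (-1.16 ± 0.18), a nucleolar chaperone, NCL (-0.99 ± 0.20), nucleolin, and NPM1 (-1.24 ± 0.25), nucleophosmin. Of 28 initiation factors 15 fell (median -0.63), among them EIF1AX (-1.41 ± 0.33), which helps to select the start codon. Of 14 elongation and poly(A) factors 5 fell, among them EEF2 (-0.57 ± 0.18), the translocation factor. Of 14 genes of RNA polymerase I and ribosomal DNA transcription 1 fell (TAF1D), and of 20 MYC and mTOR regulators none was called (edgeR). In WT liver none of these 5 lists had a called gene over the slope by the same test. Mitochondrial ribosomal proteins (28 of 76 lower) and respiratory chain subunits (17 of 75 lower), a list chosen after results were seen, also fell in CF, as did 8 of 20 cell cycle genes and 7 of 21 erythroid markers (1 rose).

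In gallbladder, CF minus WT, assembly and initiation factors were called in both directions, in a comparison where 20.1% of all genes were lower and 23.6% higher. Of the lists that follow, the shares of initiation factors, elongation factors and MYC and mTOR regulators lie near these values and are no result about the lists. Of 40 assembly factors 17 were lower and 3 higher, led by NOP56 (-2.13 ± 0.36) and NOP58 (-1.44 ± 0.28), core proteins of the box C/D particles that methylate ribosomal RNA. Of 27 initiation factors 7 were lower and 3 higher, among them EIF5B (-1.96 ± 0.34), which joins the subunits, and EIF4G3 (1.5 ± 0.26), a scaffold of the cap complex. Of 14 elongation and poly(A) factors 3 were lower and 2 higher, and EIF5A (2.63 ± 0.64), which frees stalled ribosomes, was among the higher. Of 20 MYC and mTOR regulators 4 were higher, among them LARP1 (3.18 ± 0.74), which binds ribosomal protein messenger RNAs, and 1 was lower. Of 4 tested ribosome-associated genes outside the name rule 3 were lower, among them FAU, which encodes a fusion of RPS30 (-1.88 ± 0.57), and RPL36AL, a copy of RPL36A (-2.40 ± 0.63).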

How the data were processed

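Gene-level estimated counts were measured in liver (24 libraries) and gallbladder (12 libraries). The gallbladder values are a merged salmon sheet of estimated counts, per the file headers. The values of the deposited liver table, whose name mentions TPM, were read as estimated counts because their totals differ between libraries. Of the values above 0, 0.277% were whole numbers in liver and 87.8% in gallbladder. Whether the liver values had been scaled by transcript length is not stated, and their totals do not settle it. The submitters' processing notes name Salmon 1.10.1 and 1.9.0 and STAR 2.7.9a beside edgeR, DESeq2 and limma, without their roles. The genome build is not given in the sources used here. No positions or sequences are printed.

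Estimated counts were rounded. Liver and gallbladder had separate quasi-likelihood fits (edgeR 4.0.16, R 4.3.3) after filterByExpr and TMM scaling, each combination of genotype and stage having its own mean. Tests were two-sided, with Benjamini-Hochberg adjustment over all genes and a threshold of 0.05. DESeq2 1.42.0, other scalings, no filter and left-out libraries were the alternatives. Core medians use log2(CPM + 0.5).

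Members, lists and tests were chosen with earlier results of these data known. Named members were the switch rows, 12 landmark genes, paralogue pairs and up to 12 called members a direction with the largest change. In each list up to 4 genes with the smallest p were named. RPS15A in WT newborns, RPL6, RPL39 and the r-ranked rows were chosen after their values were seen. The 2 CF d100 gallbladder columns could be matched to their group only. Their headers share a library name and differ in a final letter, while the labels list 2 libraries. Whether the columns come from separate libraries or animals is not stated. The libraries of every group differed by more than sampling noise (at least 13.0 chi-square units per gene). Chromatin accessibility libraries were not used here. The values of 3 genes are not reported here.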

Additional observations from a re-analysis of the deposited data

Results flagged for a closer look

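Among the ribosomal protein genes 2 differed between the genotypes in the last step of gestation in liver by a test of the difference itself, and both had an adjusted p just under the threshold of 0.05 by edgeR's quasi-likelihood test. RPL4 changed by 1.31 (log2) more in CF than in WT, with an estimate of 0.50 ± 0.32 in CF and of -0.81 ± 0.32 in WT (SE), neither of them called alone (adjusted p = 0.338 in CF and 0.0598 in WT). RPL26L1 changed by 1.28 more in CF than in WT, with 0.35 ± 0.31 in CF (adjusted p = 0.516) and -0.93 ± 0.32 in WT (adjusted p = 0.0291). Over the alternatives the differences lay between 1.04 and 1.82 for RPL4 and between 1.04 and 1.73 for RPL26L1, with adjusted p between 0.00182 and 0.15 and between 0.00222 and 0.157. The share of called members, 2 of 82, lies below the 10.8% of all genes called higher in this comparison.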

How the results depend on the processing

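The count of called members was recomputed for each comparison. The RPS3A call over the fetal stages held under all alternatives run (log2 -7.96 to -5.92). None of them took RPS3A and LOC101116132 together, and the sums of both rows overlapped between the genotypes. The call therefore covers the RPS3A row alone. Calls by DESeq2 numbered 60 lower for the CF liver slope, 29 for WT term minus d120, 2 for CF birth minus WT term, 76 for WT birth minus fetal gallbladder, 23 for CF later minus d80 and 10 higher for the last-step difference. With library totals only, an alternative added after the data were seen, the counts were 18 lower for the CF slope, 35 for WT term minus d120, 15 for gallbladder CF minus WT and 10 for WT birth minus fetal, and 55 higher for CF birth minus WT term, 26 for CF birth minus d120 and 59 for the last-step difference. Under it the median of all genes was 0.40 for the CF slope, 0.54 for the slope difference and for CF birth minus d120, 0.91 for CF birth minus WT term and for gallbladder CF minus WT, 0.49 for the last-step difference, 0.81 for WT birth minus fetal and 0.27 for CF later minus d80. The lower calls were 17.8% of all genes' calls for the CF slope (48.1% with TMM), 9.51% for CF birth minus WT term (49.7%), 21.2% for CF birth minus d120 (57%), 18.8% for the last-step difference (48.9%), 16.7% for gallbladder CF minus WT (46.0%) and 16.6% for WT birth minus fetal (41.1%). The core median minus that of all genes was -1.03 with totals and -1.04 with TMM for the CF slope, and -1.86 with totals and -1.87 with TMM for gallbladder CF minus WT. Scaling without the members left 1 call in the last-step difference. The CF slope gave 3 calls as d120 minus d50, 2 with 1 unit per donor-number stem and 0 on a line over d50 to d100. On that line 12 called members turned above 0: RPS21 0.32, RPS15A 0.17, RPS12 0.15, RPS6 0.19, RPL22L1 0.11, RPS23 0.015, RPL13 0.14, RPL36A 0.27, RPLP0 0.010, RPSA 0.099, RPL5 0.049 and RPL11 0.027. Gallbladder CF minus WT gave 2 with WT d100 as 1 unit, 0 at d100 alone and 9 at d120 alone. WT birth minus fetal gave 0 with WT d100 as 1 unit and 0 against d100 alone. The cause of these shifts was not tested.

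Leaving out 1 library at a time, the spread of a group with 1 library left was taken from the remaining groups. Counts lower ranged from 0 to 55 for the CF slope, 0 to 25 for WT term minus d120, 1 to 3 for CF birth minus WT term, 0 to 1 for CF birth minus d120, 0 to 76 for each gallbladder comparison, and 0 to 1 for the last-step difference. Counts higher ranged from 0 to 6 for the last-step difference and 0 to 1 for CF birth minus WT term and for WT term minus d120. No paired analysis was possible because the replicate numbers were given in accession order and pair no libraries across groups. With 2 libraries a group, and counts that cover 1 sequencing of each, a missed call does not show that values were alike.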

Other observations

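NPM1, which encodes nucleophosmin, was another row of the liver table with high and near-empty libraries. It had 33.0 to 122 CPM in all 12 CF livers. In WT livers it had 43.8 to 101 CPM at d50 and d120 and 1.16 to 4.80 CPM at d65, d80, d100 and term. Both WT d80 livers and WT d65 replicate 2 were low in NPM1 and RPS3A, and both WT d50 livers and WT d120 replicate 1 were on in both. In most livers the rows differed. All 12 CF livers and WT d120 replicate 2 were on in NPM1 and low in RPS3A. WT d65 replicate 1 and both libraries of WT d100 and of WT term were the reverse.

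Of the animals with a number on both a liver and a gallbladder library, the one behind the highest gallbladder share (CF d80, 26.4%) had 7.19% in its liver. The WT d120 animal with 22.1% in gallbladder had 5.84% in liver.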
